A study of Homo sapiens with 208 samples.

Results

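The genes described here are the 4 ERBB receptors, EGFR, ERBB2, ERBB3 and ERBB4, and 6 genes grouped with them as negative regulators. These are ERRFI1, LRIG1, LRIG3, CBL, CBLB and PTPN1. All 10 were chosen by name, with earlier results of these data known. Every array probe whose RefSeq accession belongs to 1 of them was taken, which gave 15 of the 24794 probes that could be named, for 10 of 16961 genes. All 10 were among the 13261 genes tested. PC9, a cell line from a human lung adenocarcinoma, carries an activating deletion in EGFR and is sensitive to gefitinib, which inhibits the EGFR kinase. PC9M2, written PC9GRM2 in the sample labels, is a single resistant line isolated from PC9 after long exposure to gefitinib. Both lines were starved for 48 h and then kept under no treatment, 0.5 µM gefitinib from 2 h before time 0 (-2 h), EGF at 100 ng/ml added at 0 h, or the 2 agents together. RNA of 26 time points from 0 to 24 h was hybridized to 1-colour Agilent arrays with 1 array per time point, which makes 8 courses of 26 arrays. There were no replicate arrays, so time points took the place of replicates and the p-values measure the spread between time points.

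The ERBB receptors sit in the plasma membrane and signal as pairs. EGF binds EGFR, ERBB2 has no known ligand of its own and is the preferred partner of the others, ERBB3 binds neuregulins but has little kinase activity and couples to the PI3-kinase pathway, and ERBB4 binds neuregulins and is an active kinase. ERRFI1 (MIG6) binds the kinase domain of active EGFR and blocks it, and its gene is induced by ERBB signaling, so that it closes a feedback loop. CBL and CBLB are ubiquitin ligases that mark activated receptors for degradation. LRIG1 and LRIG3 are transmembrane proteins of 1 family, of which LRIG1 is known to lower ERBB receptor levels, and PTPN1 is a phosphatase that removes phosphate from receptor tyrosine kinases.

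All values are log2 signals, with the arrays quantile normalized together, and a difference is the mean over the 26 matched time points, given with its standard error (SE) and limma's p-value adjusted by the Benjamini-Hochberg method over the 13261 genes. A gene that passed had an adjusted p under 0.05. The level of 1 probe cannot be set against that of another. Because the 4 arrays of a slide were the 4 treatments at one time in one line, each treatment difference is also a difference within a slide. No slide or scan day was common to the lines (0 shared), and the signal at which spots were marked saturated was 65525 to 65526 on PC9 arrays and 778994 to 779239 on PC9M2 arrays, so that the line and the scan cannot be told apart. No probe of the 10 genes was saturated. Of 8 markers of lung epithelium and adenocarcinoma, 6 were well above background on every array, NAPSA on 207 and NKX2-1 on 13. The leukocyte marker PTPRC and the fibroblast marker PDGFRB were well above background on 1 array each, while the monocyte marker CD14 and the endothelial marker VWF were so on every array. The part of these in the results was not tested.

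The arrays of 1 time point went against their labels. At 0.5 h, DUSP6, a gene induced by ERK signaling, was at 7.75 on the PC9M2 array labelled EGF, where the other EGF arrays of that line ranged from 11.98 to 13.87. On the PC9M2 array labelled both agents it was at 12.53, against 7.51 to 11.52 on the others. SPRY4 and FOSL1 stood apart in the same way. Among the genes described here, ERRFI1 was at 5.15 on the array labelled EGF and at 6.90 on the array labelled both agents, and ERBB3 at 10.89 and 10.00. Results that use these courses are given with and without 0.5 h where this changed a count. The array farthest from its neighbours in time was the untreated PC9M2 array of 11 h, whose median absolute distance over genes was 0.67 against 0.19 over all arrays, followed by the untreated PC9 array of 18 h with 0.54. Leaving out 8, 11, 16 and 18 h did not turn the direction of any of the gefitinib effects below.

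RefSeq promoter windows (GRCh38.p14) were at hand for 8 of the 10 genes, not for ERBB3 and CBL. The 17 windows span 250 bases before to 50 after a transcript start. They were searched on both strands for the letters of 5 motifs, which are FOXO (GTAAACA), AP-1 (TGANTCA), CRE (TGACGTCA), ETS (CCGGAAGT) and the E-box (CACGTG). Stretches before the start are shown for ERBB2, which rose with gefitinib, and for ERRFI1 and LRIG3, which fell with it, on the strand of the gene and with motif letters in capitals. The ERBB2 stretch is chr17:39687994-39688093 on the plus strand, that of ERRFI1 chr1:8026310-8026409 and that of LRIG3 chr12:58920587-58920686, both on the minus strand.
ERBB2: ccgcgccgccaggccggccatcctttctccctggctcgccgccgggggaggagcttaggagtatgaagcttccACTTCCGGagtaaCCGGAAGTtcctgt
ERRFI1: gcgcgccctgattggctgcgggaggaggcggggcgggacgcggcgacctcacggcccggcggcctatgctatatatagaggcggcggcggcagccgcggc
LRIG3: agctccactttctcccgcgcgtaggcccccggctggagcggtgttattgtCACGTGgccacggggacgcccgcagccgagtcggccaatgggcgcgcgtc
The ERBB2 window held the ETS letters at 27 and at 14 bases before the start, once on each strand. Of all 35116 windows, 4.14% held them and 0.382% held them 2 or more times. The same ERBB2 window held the AP-1 letters at 222 bases before the start, as did a second EGFR window at 232 and 136 and an LRIG1 window at 166 and 77, and 7.71% of all windows held them. LRIG3 held the E-box letters at 132 bases before the start, as 7.26% of windows did. The ERRFI1 window held none of the 5 motifs, and no window of these genes held the FOXO letters, found in 3.42% of windows, or the CRE letters, found in 1.85%.

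The receptors parted under gefitinib. In PC9, ERBB2 and ERBB3 rose nearly 4-fold while EGFR fell slightly and ERBB4 did not pass the test. In PC9M2, ERBB2, ERBB3 and ERBB4 rose and EGFR did not pass. Over all 10 genes, 9 passed in PC9 (3 higher, 6 lower), where 72.2% of all tested genes passed (34.8% higher, 37.4% lower). In PC9M2 8 passed (4 higher, 4 lower), where 66.5% of all genes did (32.5% higher, 34.0% lower), so both counts are near the background. The sizes were larger. The median absolute difference was 1.17 over the 10 genes and 0.44 over all genes in PC9, and 0.85 and 0.32 in PC9M2. Since the gene set was chosen with earlier results of these data known, this comparison is only a description.

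ERBB2, the orphan partner receptor, was measured by a probe with 10 spots per array, whose SD within an array had a median of 0.04. Without treatment its signal in PC9 ranged from 10.80 to 12.31 with a median of 11.60, and with gefitinib from 11.56 to 15.19 with a median of 13.77. At 21 of 26 time points the gefitinib array lay above every untreated array. The difference was 1.98 (SE 0.17, 3.94-fold, adjusted p = 3.38e-11), higher at 26 of 26 time points. It grew with time. In gefitinib ERBB2 was at 12.09 at 0 h, 12.99 at 4 h, 13.60 at 12 h and 15.19 at 24 h, against 11.23, 11.48, 11.90 and 11.96 without treatment. The effect was 0.81 ± 0.38 (SD, n = 6) from 0 to 4 h, 1.83 ± 0.64 (n = 8) from 5 to 12 h and 2.66 ± 0.45 (n = 12) from 13 to 24 h, and late exceeded early by 1.86 (SE 0.25, adjusted p = 4.35e-07). In PC9M2, where untreated cells started higher, ERBB2 ranged from 12.11 to 13.70 (median 13.04) without and from 13.12 to 15.10 (median 14.13) with gefitinib. The difference of 1.11 (SE 0.12, 2.15-fold, adjusted p = 2.26e-09) was seen at 24 of 26 time points and rose from 0.17 ± 0.37 (n = 6) early to 1.52 ± 0.24 (n = 12) late. The second ERBB2 probe, with 1 dim spot, gave a smaller rise of 1.03 in PC9 and 0.66 in PC9M2.

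ERBB3, the neuregulin receptor that couples to PI3-kinase, had risen by the middle of the course. In PC9 the 2 courses did not overlap, a feature not counted over all genes. They spanned 9.70 to 11.37 (median 10.41) untreated and 11.39 to 13.10 (median 12.38) in gefitinib. The difference was 1.87 (SE 0.12, 3.64-fold, adjusted p = 1.41e-13) at 26 of 26 time points. At 0 h, 2 h after gefitinib, the arrays stood at 11.39 and 11.37, and at 2 h at 12.48 and 10.92. From 0 to 4 h the effect was 1.11 ± 0.64 (SD, n = 6), from 5 to 12 h 2.05 ± 0.53 (n = 8) and from 13 to 24 h 2.12 ± 0.34 (n = 12). PC9M2 went from 8.52 to 10.26 (median 9.87) untreated to 9.89 to 12.40 (median 11.52) in gefitinib, a difference of 1.68 (SE 0.11, 3.21-fold, adjusted p = 4.7e-13) at 26 of 26 time points. There the effect was 1.48 ± 0.77 early and 1.63 ± 0.21 late, and late did not differ from early by the test (difference 0.14, 95% confidence interval -0.44 to 0.73).

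EGFR itself, the target of gefitinib, moved little. Its probe also had 10 spots per array. In PC9 it ranged from 11.43 to 12.33 (median 11.81) untreated and from 11.15 to 12.09 (median 11.60) in gefitinib, and the courses overlapped. It fell by 0.25 on the log2 scale (SE 0.06, adjusted p = 0.000283) and was lower at 22 of 26 time points, but with time points 3 h apart (n = 9) the difference was -0.12 and did not pass. In PC9M2 the medians were 11.03 untreated and 11.04 in gefitinib, and the difference was 0.08 (95% confidence interval -0.06 to 0.22). ERBB4 was near background. Its probe was well above background on 17 and 19 of 26 PC9 arrays and on 15 and 23 of 26 PC9M2 arrays without and with gefitinib. In PC9 the difference was 0.33 (95% confidence interval -0.13 to 0.78), made of 0.84 ± 0.27 early, 1.16 ± 1.06 in the middle and -0.48 ± 1.07 late. In PC9M2 it rose by 0.75 (SE 0.19, adjusted p = 0.000972) at 19 of 26 time points, a value that became 0.10 with normexp background correction and did not pass with time points 3 h apart. The other ERBB4 probe, well above background on at most 4 arrays of any course, gave 0.72 in PC9 (adjusted p over 29928 probes 0.00282) and 0.53 in PC9M2 (0.014).

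**Figure D1:**
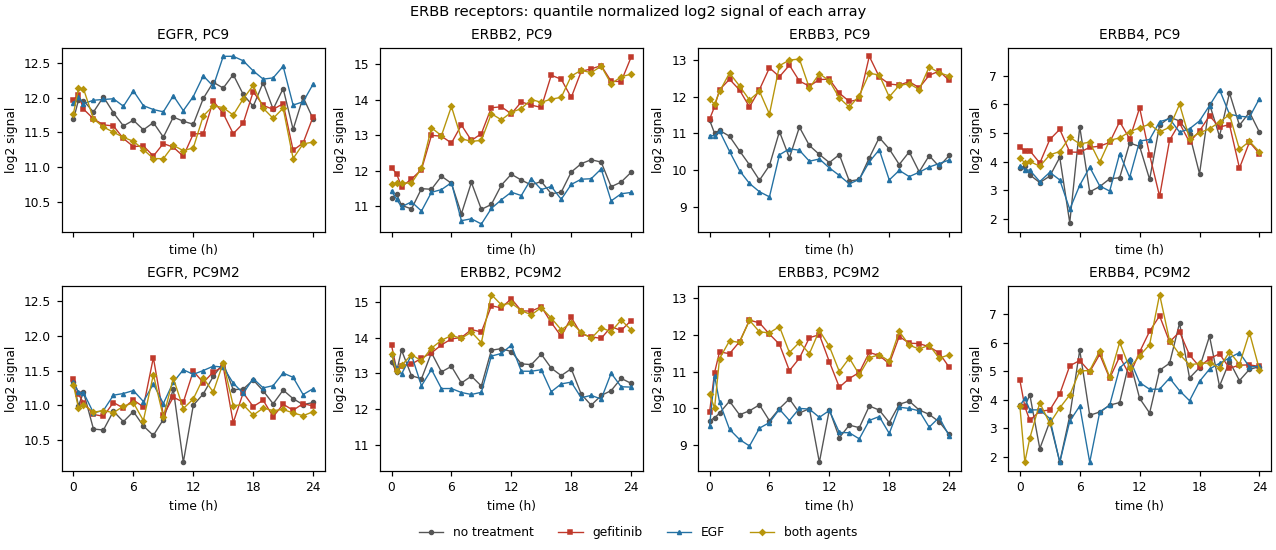
Quantile normalized log2 signal of each array against time in hours for the 4 receptors, PC9 in the upper row and PC9M2 in the lower, with 1 point per array and 1 colour per treatment. ERBB2 climbs over the whole course in gefitinib-treated PC9 to 15.19 at 24 h, ERBB3 lies above all untreated PC9 arrays at every time point, and EGFR stays within a narrow band.

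Most of the regulators fell. ERRFI1, LRIG3, CBL and PTPN1 fell in both lines, and CBLB rose in both. LRIG1 fell in PC9 and did not pass in PC9M2.

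ERRFI1, the feedback inhibitor of EGFR, fell over the whole course. In PC9 the signal was between 6.99 and 9.48 (median 8.49) untreated and between 5.22 and 7.31 (median 6.16) in gefitinib, and at 25 of 26 time points the gefitinib array lay below every untreated array. It fell by 2.10 on the log2 scale (SE 0.14, 4.3-fold, adjusted p = 3.58e-13), at 26 of 26 time points. At 0 h the levels were 7.24 untreated and 6.49 in gefitinib. Untreated ERRFI1 rose to 9.43 at 24 h while the gefitinib course reached its lowest value, 5.22, at 12 h and then returned to 6.98. The effect deepened from -1.09 ± 0.44 (SD, n = 6) early to -2.56 ± 0.32 (n = 12) late (difference -1.47, SE 0.23, adjusted p = 6.74e-06). In PC9M2 it ranged from 6.29 to 7.96 (median 7.22) untreated and from 3.75 to 7.19 (median 6.11) in gefitinib and fell by 1.18 (SE 0.09, 2.27-fold, adjusted p = 3.16e-12), again at 26 of 26 time points. The order in time was the other way round, with -1.49 ± 0.64 early and -1.17 ± 0.30 late, a difference of 0.32 that did not pass (adjusted p = 0.228). By the brighter probe it was 0.79 and passed (adjusted p = 0.000406), as it did with normexp (0.77) and by the mean of the probes (0.56). The second, brighter ERRFI1 probe gave -1.68 in PC9 and -0.93 in PC9M2.

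CBL, the first of the ubiquitin ligases, separated late. Untreated PC9 rose from 6.07 at 0 h to 8.15 at 24 h, while gefitinib-treated PC9 sank from 6.35 to 4.73. The ranges were 5.28 to 8.23 (median 6.59) and 4.02 to 6.35 (median 5.13). The difference was -1.65 (SE 0.24, 3.13-fold, adjusted p = 6.4e-07), lower at 24 of 26 time points, with -0.25 ± 0.27 early and -2.77 ± 0.76 late. Late differed from early by -2.52 (SE 0.34, adjusted p = 4.97e-07), and by the bright probe of CBL by -1.10. In PC9M2 the difference was -0.95 (SE 0.19, adjusted p = 8.12e-05), with -0.02 ± 0.79 early and -1.58 ± 0.89 late, but this probe was well above background on only 13 of 26 untreated and 6 of 26 gefitinib arrays of that line. The bright CBL probe, well above background on every array, gave -0.95 in PC9 and -0.50 in PC9M2. CBLB, the related ligase, went up. Its signal was between 5.89 and 8.00 (median 6.91) untreated and between 6.43 and 8.93 (median 7.56) in gefitinib in PC9, a rise of 0.81 (SE 0.12, 1.75-fold, adjusted p = 8.45e-07) at 22 of 26 time points. In PC9M2 it was between 5.29 and 7.22 (median 6.41) and between 6.02 and 8.58 (median 7.39), a rise of 0.98 (SE 0.09, 1.98-fold, adjusted p = 1.94e-10) at 25 of 26 time points. The second CBLB probe gave rises of 1.22 and 1.19.

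LRIG3 lay between 7.26 and 8.97 (median 8.32) untreated and between 4.87 and 8.02 (median 6.70) in gefitinib in PC9. Both courses rose to their highest value at 3 h, 8.97 and 8.02, and by 24 h the untreated course was back at 7.66 and the gefitinib course at 6.10. The difference was -1.54 (SE 0.18, 2.91-fold, adjusted p = 1.13e-08), from -0.31 ± 0.75 early to -2.02 ± 0.75 late. In PC9M2 it fell by 0.74 (SE 0.08, 1.68-fold, adjusted p = 1.05e-08), and both values were smaller with normexp background correction, at -0.67 and -0.39. LRIG1 was dim, well above background on 12 to 15 of the 26 arrays of a course. It fell by 0.38 in PC9 (SE 0.11, adjusted p = 0.00295), which did not pass when arrays were scaled to their 75th percentile (-0.15), with normexp (-0.02) or with time points 3 h apart (-0.21). In PC9M2 the difference was -0.18 (95% confidence interval -0.41 to 0.05), and at 10 h LRIG1 fell to 2.76, 2.94 and 2.68 under no treatment, gefitinib and both agents alike. PTPN1, the phosphatase, fell by 0.68 in PC9 (SE 0.07, 1.6-fold, adjusted p = 1.07e-09, 26 of 26 time points) and by 0.49 in PC9M2 (SE 0.05, 1.4-fold, adjusted p = 2.77e-09, 25 of 26 time points). Its PC9 signal was 10.71 to 11.86 (median 11.11) untreated and 10.04 to 10.96 (median 10.53) in gefitinib, and late did not differ from early by the test in either line (differences -0.20 and -0.10). The effect was -0.48 early, -0.83 in the middle and -0.68 late in PC9, and -0.34, -0.67 and -0.44 in PC9M2.

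Late against early, 7 of the 10 genes passed in PC9 and 3 in PC9M2, beside 52.3% and 38.9% of all genes. The 7 were ERBB2 and ERBB3 upward and ERBB4, ERRFI1, LRIG1, LRIG3 and CBL downward, and the 3 in PC9M2 were ERBB2 (1.35), LRIG3 (-0.55) and CBL (-1.57). In PC9 the dim ERBB4 and LRIG1 passed in 4 of 5 and in 4 of 6 alternatives. Their smallest differences under these were -0.17 and -0.03.

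**Figure D2:**
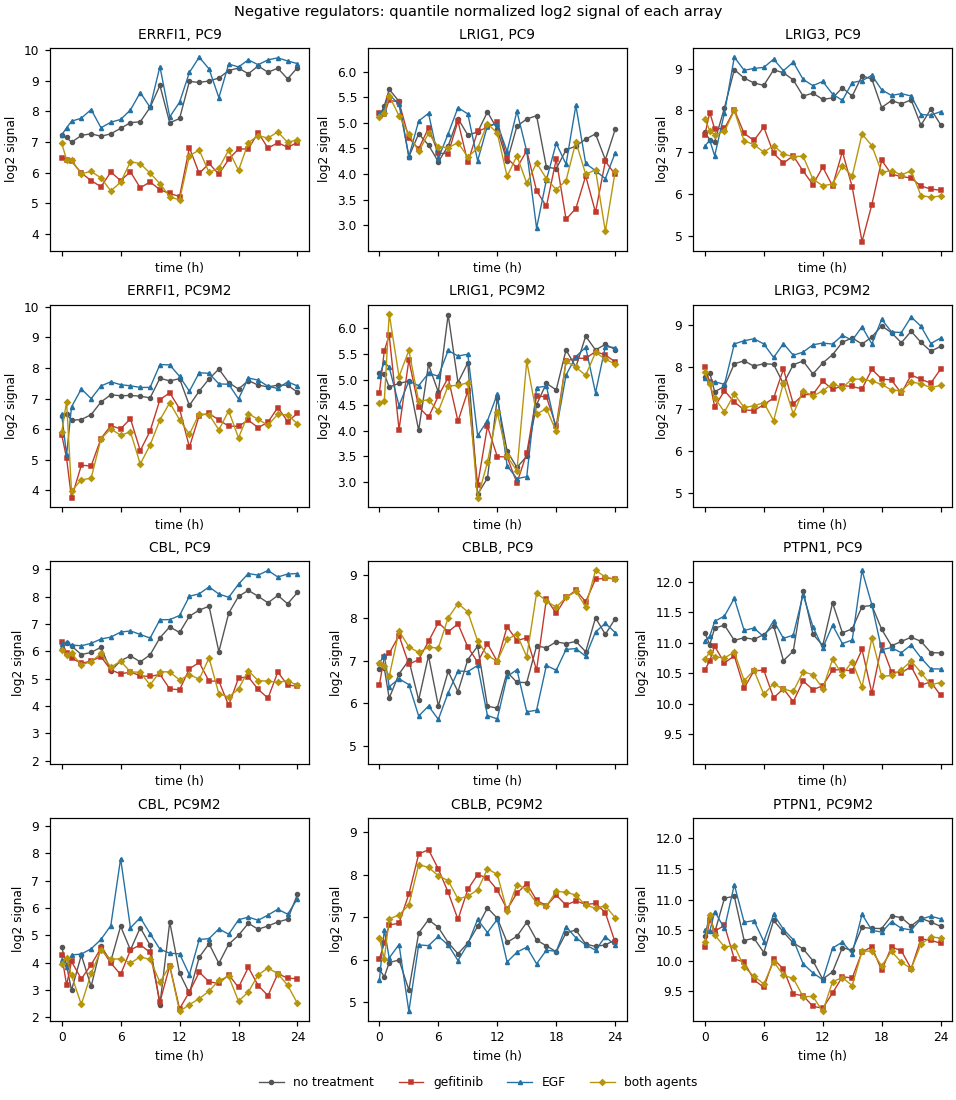
Quantile normalized log2 signal of each array against time in hours for the 6 regulators, with the PC9 panel of each gene above its PC9M2 panel, 1 point per array and 1 colour per treatment. In PC9 the gefitinib and both-agent courses of ERRFI1, LRIG3 and CBL run below the other courses at most time points, for CBL most widely after 12 h. Those of CBLB mostly run above, and LRIG1 drops in all PC9M2 courses around 10 to 14 h.

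Gefitinib was also compared within EGF-treated cells, on other arrays. There 9 of 10 genes passed in each line, beside 78.9% of all genes in PC9 and 74.4% in PC9M2 (75.3% without 0.5 h, with 9 genes again). In PC9, ERBB2 rose by 2.18 (SE 0.17, 4.54-fold, adjusted p = 5.97e-12) and ERBB3 by 2.18 (SE 0.09, 4.52-fold, adjusted p = 1.69e-17), ERRFI1 fell by 2.34 (5.07-fold, adjusted p = 5.86e-14) and EGFR by 0.51 (1.42-fold, adjusted p = 4.2e-09). CBL fell by 2.26 by its dim probe (4.8-fold, adjusted p = 6.67e-09). By that probe its 26 arrays with both agents all lay below its 26 arrays with EGF. Such separation was not counted over all genes. By the bright probe CBL fell by 1.23 and the courses overlapped, with 10.52 to 11.68 under both agents and 11.54 to 12.87 under EGF. In PC9M2 without 0.5 h, ERBB3 rose by 1.98 (3.96-fold) and ERBB2 by 1.35 (2.54-fold), ERRFI1 fell by 1.55, and EGFR, which had not passed without EGF, fell by 0.23 (SE 0.04, adjusted p = 2.46e-05, 21 of 25 time points). CBL fell by 1.74 by the dim probe, which was well above background on 2 of 26 PC9M2 arrays with both agents, and by 0.62 by the bright probe with 0.5 h included.

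**Figure D3:**
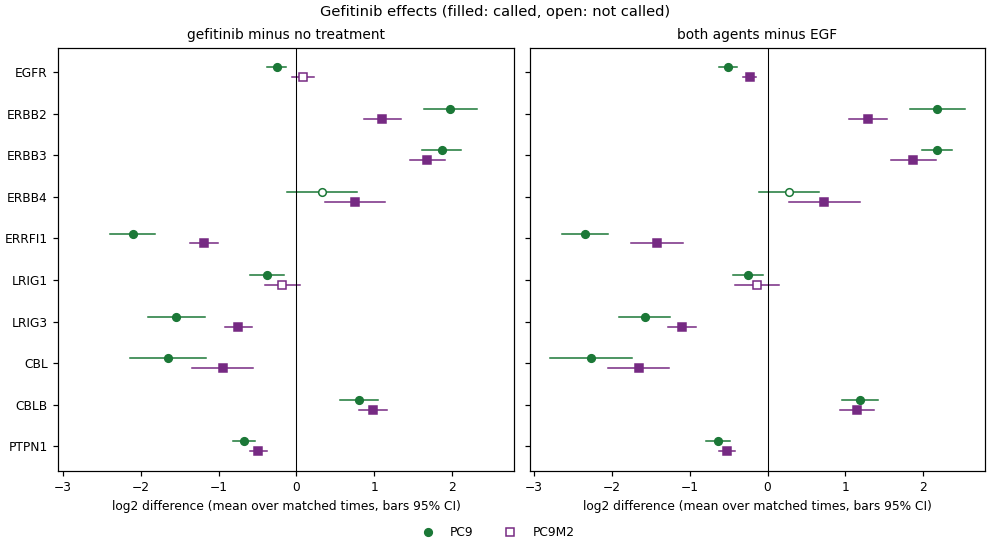
Mean log2 difference over matched time points of gefitinib against no treatment (left) and both agents against EGF (right) for each gene, circles for PC9 and squares for PC9M2, bars for 95% confidence intervals, filled where the gene passed. ERBB2, ERBB3 and CBLB lie to the right of 0 and ERRFI1, LRIG3, CBL and PTPN1 to the left in both lines and both comparisons.

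The 2 lines were then compared in their response, as the difference of the paired gefitinib effects. Of the 10 genes, 5 passed, beside 34.1% of all genes. ERBB2 rose less in PC9M2 (difference -0.87, SE 0.11, adjusted p = 7.09e-07, 24 of 26 time points), though by its second probe the difference was -0.38 and did not pass (adjusted p over 29928 probes 0.201). ERRFI1 (0.92, SE 0.18, adjusted p = 0.000281), LRIG3 (0.80, SE 0.16, adjusted p = 0.000384) and CBL (0.70, SE 0.16, adjusted p = 0.00104) fell less. With normexp background correction LRIG3 gave 0.28, and the bright CBL probe gave 0.44. EGFR fell in PC9 and not in PC9M2 (0.34, SE 0.09, adjusted p = 0.00526). With time points 3 h apart, ERBB2 and ERRFI1 were the 2 that passed. For ERRFI1 the lines parted with time, at -0.40 ± 0.84 (SD, n = 6) early and 1.39 ± 0.40 (n = 12) late. ERBB3 gave -0.18 (95% confidence interval -0.45 to 0.09), CBLB 0.18 (-0.15 to 0.50), PTPN1 0.19 (0.02 to 0.35, adjusted p = 0.075), ERBB4 0.42 (-0.06 to 0.90) and LRIG1 0.20 (-0.15 to 0.54), none of which passed.

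Without treatment the lines already differed in the receptors. ERBB2 was higher in PC9M2 by 1.48 (SE 0.13, 2.79-fold, adjusted p = 5.2e-11), at 25 of 26 time points, while EGFR was lower by 0.83 (SE 0.06, 1.78-fold, adjusted p = 1.7e-12) at 26 of 26 and ERBB3 lower by 0.67 (SE 0.11, 1.59-fold, adjusted p = 4.07e-06) at 24 of 26. PTPN1 was lower by 0.71 (SE 0.09, 1.64-fold, adjusted p = 1.01e-07). The ERBB2 gap narrowed from 1.98 ± 0.43 (SD, n = 6) early to 1.05 ± 0.69 (n = 12) late. Of the 10 genes, 7 passed without treatment (1 higher, 6 lower), beside 68.1% of all genes (30.3% higher, 37.8% lower), and 7 with gefitinib, beside 64.7%. In gefitinib the ERBB2 gap was 0.61 (SE 0.16, adjusted p = 0.00167) and closed over time, from 1.34 ± 0.41 early to -0.09 ± 0.73 late. LRIG3, which did not differ by the test without treatment (-0.05, 95% confidence interval -0.29 to 0.19), was higher in PC9M2 by 0.75 (SE 0.17, adjusted p = 0.000346) in gefitinib, or by 0.27 with normexp. ERBB4 passed in gefitinib only narrowly (0.47, adjusted p = 0.0476) and LRIG1 in neither. With EGF 7 of 10 passed, or 6 without 0.5 h, beside 69.8% and 68.9% of all genes. With both agents 7 passed with or without 0.5 h, beside 67.7% and 66.7%. With EGF the ERBB2 arrays of PC9M2 all lay above those of PC9 and the EGFR arrays all below. How many of all genes separated in this way was not counted.

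The difference between the lines depended on the probe for all 5 genes that had more than 1. Untreated ERRFI1 was 1.15 lower in PC9M2 by the probe used (SE 0.14, adjusted p = 1.39e-08) and 0.45 higher by the brighter probe (adjusted p over 29928 probes 3.02e-05). CBLB was 0.49 lower by one probe (adjusted p = 0.00637) and 0.38 higher by the other. CBL was 2.27 lower by the dim probe (SE 0.19, 4.81-fold, adjusted p = 1.28e-11) and 0.54 lower by the bright one, and in gefitinib 1.57 lower and 0.09 lower. The second ERBB2 probe gave 0.60 without treatment (adjusted p over probes 0.0262), 0.23 in gefitinib (adjusted p = 0.185) and 0.29 with both agents (adjusted p = 0.102), so the call for ERBB2 in gefitinib rests on the brighter probe. ERBB4 in gefitinib was 0.47 by one probe and -0.41 by the other. The direction of ERRFI1, CBLB and ERBB4 between the lines is therefore not settled by these arrays. Within a line the probes of ERRFI1, CBL and CBLB gave the gefitinib effect in 1 direction.

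**Figure D4:**
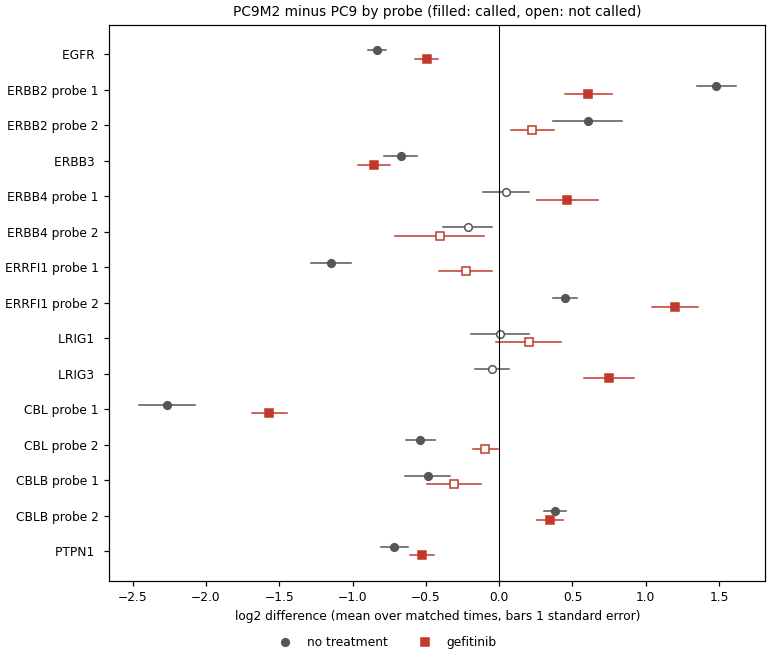
Mean log2 difference between PC9M2 and PC9 over matched time points for each of the 15 probes, circles without treatment and squares in gefitinib, bars for 1 standard error, filled where the probe passed; probe 1 of a gene is the one with the larger variance, used elsewhere. The probes of ERRFI1 and of CBLB fall on opposite sides of 0 without treatment.

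EGF was compared with no treatment in the same way. These comparisons share the untreated arrays with the gefitinib comparisons above. The effects were small. In PC9, 7 of 10 genes passed, beside 25.6% of all genes, and in PC9M2 3, or 5 without 0.5 h, beside 9.07% and 11.6%. By the dim probe CBL rose by 0.68 in PC9 (SE 0.08, 1.61-fold, adjusted p = 6.1e-07), at 26 of 26 time points, and by the bright probe by 0.26 (adjusted p over 29928 probes 0.000101). The effect by the dim probe was 0.20 ± 0.15 (SD, n = 6) early and 0.85 ± 0.45 (n = 12) late. EGFR rose by 0.26 (SE 0.04, adjusted p = 1.28e-05), ERRFI1 by 0.35 (SE 0.06, adjusted p = 0.000127) and LRIG3 by 0.14 (adjusted p = 0.0354). ERBB3 fell by 0.31 (SE 0.06, adjusted p = 0.00017), ERBB2 by 0.26 (SE 0.06, adjusted p = 0.000986) and CBLB by 0.27 (adjusted p = 0.0195). In PC9M2, CBL rose by 0.56 by the dim probe (SE 0.14, adjusted p = 0.00931), LRIG3 by 0.27 (adjusted p = 0.00119) and EGFR by 0.25 (adjusted p = 0.0033). Without 0.5 h ERRFI1 rose by 0.25 (adjusted p = 0.00825) and CBLB fell by 0.17 (adjusted p = 0.0428). The bright CBL probe gave 0.18 in PC9M2 (adjusted p over 29928 probes 0.0369). There the dim probe was well above background on 13 of 26 untreated and 17 of 26 EGF arrays. At 6 h it stood at 7.80 with EGF and 5.33 untreated. With time points 3 h apart 2 genes passed in PC9 and 0 in PC9M2, and without pairing the courses 1 and 0. The EGF effects were not shown to differ between the lines, with 0 of 10 genes passing limma's test (0 at an unadjusted p under 0.05, 1 without 0.5 h), beside 1.34% of all genes, or 1.37% without 0.5 h.

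In the presence of gefitinib no EGF effect on the 10 genes passed. With both agents against gefitinib, 0 of 10 passed in each line (0 in PC9 and 1 in PC9M2 at an unadjusted p under 0.05, and 0 in each by the methods' t-test), beside 0.0452% of all genes in PC9 and 3.11% in PC9M2. Without 0.5 h it was also 0 in PC9M2 by limma (2 unadjusted), beside 7.13%. For CBL in PC9 the difference was 0.07 (95% confidence interval -0.07 to 0.21) and for EGFR 0.00 (-0.07 to 0.08). The EGF effect itself differed with and without gefitinib for 4 genes in PC9, beside 13.2% of all genes, and these were, with CBL by its dim probe, CBL (-0.62, adjusted p = 0.000361), EGFR (-0.25, adjusted p = 0.00233), ERRFI1 (-0.24, adjusted p = 0.0426) and ERBB3 (0.31, adjusted p = 0.00888). Without 0.5 h 3 passed, beside 13.6%, and ERRFI1 did not (adjusted p = 0.0537). In PC9M2 it differed for 3, beside 10.1%. These were CBL, again by its dim probe (-0.71, adjusted p = 0.00267), LRIG3 (-0.35, adjusted p = 0.000512) and EGFR (-0.32, adjusted p = 0.00306). Without 0.5 h there were 6, with ERRFI1, ERBB3 and CBLB added, beside 15.7%. By the bright CBL probe the EGF effect in PC9 was 0.26 without gefitinib and -0.02 with it. In PC9M2, with 0.5 h included, it was 0.18 and 0.07. For that probe the difference was not tested.

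**Figure D5:**
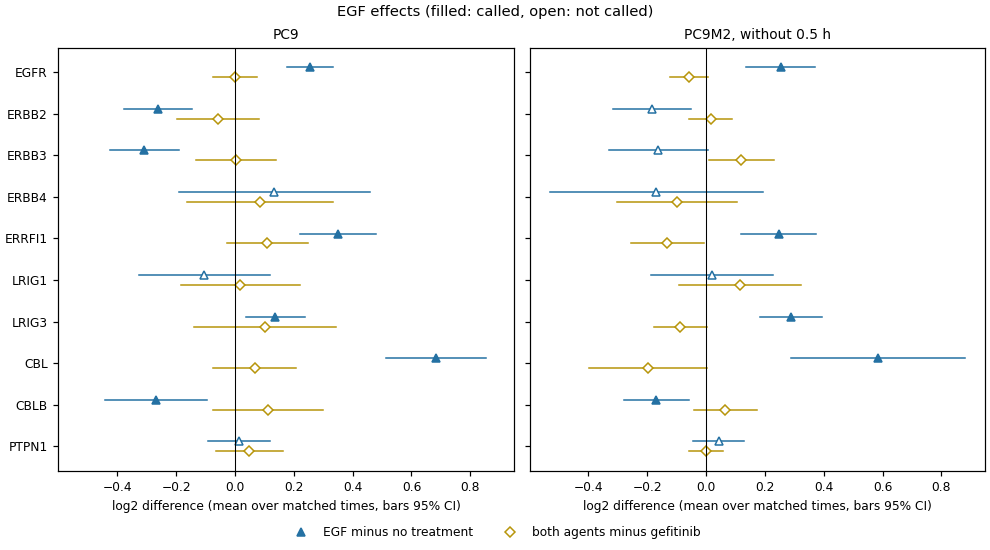
Mean log2 difference over matched time points of EGF against no treatment (triangles) and of both agents against gefitinib (diamonds) in PC9 and, without 0.5 h, in PC9M2, bars for 95% confidence intervals, filled where the gene passed. CBL, EGFR and ERRFI1 lie to the right of 0 with EGF alone, and no diamond is filled.

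The genes also moved in untreated cells. By a spline fit in time, tested with limma's F statistic, 8 of 10 changed over time in untreated PC9 and 9 of 10 in untreated PC9M2, beside 66.5% and 67.5% of all genes. In PC9 the fitted curve spanned 2.46 for the dim CBL probe, lowest at 5 h and highest at 24 h, and 0.73 for the bright one. It spanned 2.27 for ERRFI1, lowest at 0 h and highest at 20 h, and 1.65 for LRIG3, lowest at 0 h and highest at 6 h. EGFR spanned 0.51 and ERBB2 0.79, and ERBB3 and PTPN1 did not pass. In PC9M2 the spans were 2.54 and 0.85 for the dim and the bright CBL probe, 1.26 for ERRFI1 and 1.21 for LRIG3, and ERBB3 alone did not pass. With scan day as a random block, 4 genes passed in PC9M2, beside 5212 of all 13261 genes.

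Over all arrays, after subtracting the mean of each line, the profiles of the genes were described by Pearson's r. The arrays share treatment and time, so no test is given. ERBB2 and ERBB3 ran together (0.69), each with CBLB (0.70 and 0.72), and both against LRIG3 (-0.80 and -0.80). ERRFI1 ran with CBL (0.72) and against ERBB3 (-0.74). The gene with the profile most like ERBB2 was ATP9A, a phospholipid flippase gene (0.96), ahead of ANXA4 and ANKRD35, both at 0.94. KIAA0513, CALCOCO1 and CALHM2 were nearest to ERBB3, at 0.94. ERRFI1 was nearest to SOCS3, which encodes a feedback inhibitor of cytokine receptors (0.88), then TRIB1 and FOXD4, both at 0.87, the last of which has near-identical copies in the genome. LRIG3 was nearest to FDX1 (0.92), TAF1A (0.91) and PIGH (0.90), and CBLB to the kinase gene STK38 (0.91), SYNE2 (0.89) and the insulin receptor gene INSR (0.88). CBL was nearest to YKT6 (0.85), STYK1 (0.85) and HDAC4 (0.84), PTPN1 to the calcium channel gene ORAI1 (0.81), RNF126 (0.79) and SENP5 (0.78), and EGFR to PLAT, which encodes tissue plasminogen activator (0.78), PDS5A and USP6NL, both at 0.75. For the dim genes the likeness was lower, with CCDC30, AUH and CA13 (0.77 to 0.72) for ERBB4 and IGF2R, TSPO and CSTF3 (0.70 to 0.69) for LRIG1.

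Other genes of receptor control were taken from 3 lists. Of all genes, 72.2% passed with gefitinib in PC9 (34.8% higher, 37.4% lower), where the median difference was -0.03. In PC9M2 66.5% passed (32.5% higher, 34.0% lower), with a median difference of -0.01. Among receptor ubiquitination and sorting genes, 5 rose and 7 fell of 21 tested in PC9 (median -0.06) and likewise 5 and 7 in PC9M2 (median 0.04). UBASH3B, whose product binds CBL and is known to protect receptors from degradation, fell by 1.32 in PC9 (SE 0.10) and by 0.81 in PC9M2. The next largest fall in PC9 was that of the ubiquitin ligase gene NEDD4L (0.89), and the largest rises were those of the ligase genes ITCH (0.42) and NEDD4 (0.40), of which NEDD4 passed in PC9M2 (0.49). Among other phosphatases and inhibitors, 5 rose and 6 fell of 13 tested in PC9 (median 0.08) and 4 and 6 in PC9M2 (median -0.03). PTPRJ, a receptor phosphatase gene, fell by 2.30 in PC9 (SE 0.26, 4.92-fold) and by 1.49 in PC9M2, and PTPN12 by 1.34 and 0.79, while PTPRF rose by 0.94 and 0.43 and PTPRK by 0.69 and 0.55. Among receptor adaptors, 4 rose and 6 fell of 15 tested in PC9 (median -0.07) and 5 and 6 in PC9M2 (median -0.07). VAV3, a guanine nucleotide exchange factor gene, rose by 3.20 in PC9 (SE 0.10, 9.17-fold) and by 3.14 in PC9M2, at 26 of 26 time points in each line. GRB7, an adaptor gene that lies beside ERBB2 on chromosome 17, rose by 1.96 (SE 0.12) and 1.78. GRB2, the adaptor that links receptors to RAS, fell by 1.04 and 0.62, and PLCG1 by 0.76 and 0.53. Between the untreated lines, 10 of the 15 adaptors were lower in PC9M2 and 2 higher, beside 37.8% and 30.3% of all genes.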

How the data were processed

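RNA of PC9 and PC9M2 cells under 4 treatments at 26 time points was measured on one-colour arrays. The authors deposited signal intensity values as Feature Extraction 10.5.1.1 wrote them, after background subtraction and spatial detrending and without scaling between arrays. They also deposited a table of quantile normalized intensity values, used as an alternative. That table gave the same number of passing genes as the main run in every comparison, so it adds no separate check. Here intensities were quantile normalized over 45015 features, raised to at least 1 and converted to log2 with limma 3.58.1 in R 4.3.3. Spots marked as outliers (0.304% of values) were removed and spots of a probe averaged. A gene was its probe of largest variance, as in the methods, tested if well above background on at least 13 of 26 arrays of a course. The number of features above background was 24755 to 36332 per array. The number of arrays, 1 per time point, limits the precision. Of 41000 probes, 24794 matched a symbol through RefSeq.

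Differences at matched time points were tested two-sided with limma's moderated test. Within a line, pairing by time is pairing by slide (52 slides of 4 arrays). Between the lines the paired arrays come from different slides and scan days. Late (13 to 24 h) was set against early (0 to 4 h), and change over time tested with a spline of 4 degrees of freedom. The gene set, the lists and the tests were chosen with earlier results of these data known. Named genes are all 10 members, the 3 genes nearest to each by Pearson's r, and, from each list, the 2 genes that rose and the 2 that fell furthest under gefitinib in PC9. Alternatives were 75th percentile scaling, normexp (offset 50) on the median signal since the files used hold no mean signal, the deposited table, the mean of all probes, the probe with the highest mean, both filters on dim genes, courses without pairing, a subset of times spaced by 3 h, autocorrelation-inflated variances, scan day as a random block, the methods' t-test and, between lines, their one-sided direction, and leaving out 0 h. Leaving out 0.5 h, and 8, 11, 16 and 18 h, was added after seeing the data. Scripts were tested on simulated data.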

Additional observations from a re-analysis of the deposited data

Results flagged for a closer look

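The gefitinib effect differed between the lines, by a test of the difference itself, for 5 of the 10 genes. The difference of PC9M2 from PC9 was -0.87 for ERBB2, 0.34 for EGFR, 0.92 for ERRFI1, 0.80 for LRIG3 and 0.70 for CBL. By second probes it was -0.38 for ERBB2, which did not pass, 0.75 for ERRFI1 and 0.44 for CBL.

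The EGF effect differed with and without gefitinib in both lines. In PC9 the difference was -0.62 for CBL, -0.25 for EGFR, -0.24 for ERRFI1 and 0.31 for ERBB3. In PC9M2 it was -0.71 for CBL, -0.32 for EGFR and -0.35 for LRIG3. The 0.5 h arrays of PC9M2 that went against their labels enter the values of PC9M2, which without them were -0.78 for CBL, -0.31 for EGFR and -0.37 for LRIG3. All these CBL values are by its dim probe. By the bright probe the EGF effect on CBL in PC9 was 0.26 without gefitinib and -0.02 with it. In PC9M2, with 0.5 h included, it was 0.18 and 0.07. For the bright probe the difference was not tested.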

How the results depend on the processing

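Of the effects of single genes under the alternatives, 19 turned round while passing in the main run or in the alternative. Of the rest, 103 no longer passed, 13 newly passed and 1934 stayed on their side of the threshold. Among the 1934, effects that passed in neither run could change direction. The EGF effect on LRIG1 in PC9M2, for example, kept its direction in 10 of 14 alternatives. The alternatives include the deposited table, which gave the same counts over all genes as the main run. Between the lines, ERRFI1 turned under normexp to 0.42 without treatment, 1.16 with gefitinib, 0.17 with EGF and 1.00 with both agents. By the probe with the highest mean it was 0.45, 1.20, 0.20 and 1.04, and by the mean of all probes 0.48 with gefitinib and 0.32 with both agents. CBLB turned to 0.32, 0.32, 0.42 and 0.33 under normexp and to 0.38, 0.35, 0.52 and 0.37 by the probe with the highest mean, and to 0.089 with EGF by the mean of all probes. These settings rest on the brighter probe of each gene or weight it more.

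Without pairing the courses (no replicate block), the number of genes that passed for EGF moved from 7 to 1 in PC9 and from 3 to 0 in PC9M2, and over all genes from 3398 to 401 and from 1203 to 89. With time points 3 h apart (n = 9) it was 2 in PC9 and 0 in PC9M2 (543 and 14 over all genes), and for the gefitinib effect between lines 2 in place of 5 (1043 in place of 4523, and 2016 unpaired). Without 0.5 h it was 5 for EGF in PC9M2. With a variance inflated for autocorrelation, 4 genes differed between the lines with gefitinib (5766 over all genes in place of 8585) and 4 with both agents (5848 in place of 8981). The one-sided test for higher in PC9M2 cannot pass lower genes and gave 1 without treatment, 2 with gefitinib, 1 with EGF and 2 with both agents. With scan day as a random block 4 changed over time in untreated PC9M2 in place of 9 (5212 over all genes in place of 8946).

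For EGF under gefitinib in PC9M2, 412 genes passed over all genes, 945 without 0.5 h, 131 without 8, 11, 16 and 18 h, 644 with scan day as a block, 120 with the inflated variance, 119 with time points 3 h apart and 0 unpaired. In PC9 6 passed, with 0 to 2 under the alternatives that moved it. With EGF in PC9M2, 522 passed with the inflated variance. For the difference of the gefitinib effect between the lines, 2864 passed with it. Between the lines, 3 h spacing gave 5877 without treatment (9036), 5752 with EGF (9260) and 5706 with both agents, and the one-sided test 3978, 4220 and 4021, and 3935 with gefitinib (8585). The causes of these shifts were not tested. ERBB4, LRIG1 and the CBL probe used lie near background, where the single array per time point limits what can be shown.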
